A study of Rattus norvegicus with 16 samples.

Results

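The collagen chain genes are the genes that encode the alpha chains of the collagens, the main structural proteins of the extracellular matrix. All probes that were not controls and whose gene name was Col, a number, the letter a and a second number were taken, which gave 53 probes of 30367 and 38 genes. Of these, 35 genes were measured well enough to be tested, among 20571 genes tested in all. They were grouped by textbook class into 11 fibrillar, 8 network-forming, 4 type VI, 9 fibril-associated, 3 transmembrane and 3 other chains (Col7a1, Col15a1 and Col18a1). Levels came from sorted cells of cultured rat olfactory mucosa, hybridised to single-colour Agilent arrays. The study compared 4 cell populations with 4 biological replicates each, 16 arrays in all.

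All populations came from male Fischer rats and carried no stated genetic change. CD90 cells were sorted for the surface glycoprotein encoded by Thy1, p75 cells for the neurotrophin receptor encoded by Ngfr, and TRKA cells for the surface marker the labels name them by. These 3 were grown by one protocol. The remaining group, TRKA-TGF, is the TRKA population after conditioning with transforming growth factor alpha. Sorted fractions were 93 to 97% pure according to the labels, so each sample may hold a small share of other cells. In bulk samples of this kind, fewer cells of a type and less RNA per cell cannot be told apart. The labels do not say which animals or cultures the replicates came from, and p-values measure the spread between these samples only.

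Each collagen chain folds with its partners into a triple helix, which needs hydroxylated prolines and the chaperone Serpinh1 in the endoplasmic reticulum. Fibrillar collagens are then trimmed by propeptide proteases, pack into fibrils and are cross-linked by lysyl oxidases. Type IV forms the network of basement membranes, type VI forms beaded microfilaments around cells, and fibril-associated collagens decorate the surface of fibrils. In the olfactory mucosa, fibroblasts of the lamina propria make much of the interstitial collagen, and the ensheathing glia of the olfactory nerve lie within basement membranes.

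Upstream sequences are shown for 4 loci whose chains moved together or against each other in the results, taken from RefSeq on the GRCr8 build, in which 30 of the 38 genes had an entry. Col4a1 and Col4a2, which were both lower in TRKA than in p75 cells, start 77 bases apart on opposite strands of chromosome 16, and the 76 bases between their starts are given from the plus strand. Col6a1 and Col6a3 stand for type VI, the class with the largest median difference between CD90 and p75 cells (7.22), and Col20a1 is the chain with the largest difference the other way. For these 3 genes the 250 bases before the start are given, 5′ to 3′ on the gene's strand. Capitals mark a match, on either strand, to 1 of 4 motifs: the CCAAT box (CCAAT), the GC box (GGGCGG), the TATA box (TATAAA) or the AP-1 site (TGANTCA).
Col4a1 and Col4a2, chr16:84885521-84885596, plus strand: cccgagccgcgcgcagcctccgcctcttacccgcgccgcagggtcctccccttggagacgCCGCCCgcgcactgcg
Col6a1, chr20:11905440-11905689, plus strand: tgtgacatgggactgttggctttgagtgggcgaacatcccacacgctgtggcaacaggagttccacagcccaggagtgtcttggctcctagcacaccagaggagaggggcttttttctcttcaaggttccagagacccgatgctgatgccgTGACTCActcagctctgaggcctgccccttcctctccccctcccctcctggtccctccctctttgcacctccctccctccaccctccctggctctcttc
Col6a3, chr9:98886959-98887208, minus strand: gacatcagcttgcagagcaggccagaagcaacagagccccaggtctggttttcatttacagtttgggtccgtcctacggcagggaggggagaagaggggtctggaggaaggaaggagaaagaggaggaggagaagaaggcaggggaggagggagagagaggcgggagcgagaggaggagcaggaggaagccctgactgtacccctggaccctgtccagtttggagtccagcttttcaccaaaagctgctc
Col20a1, chr3:188479252-188479501, plus strand: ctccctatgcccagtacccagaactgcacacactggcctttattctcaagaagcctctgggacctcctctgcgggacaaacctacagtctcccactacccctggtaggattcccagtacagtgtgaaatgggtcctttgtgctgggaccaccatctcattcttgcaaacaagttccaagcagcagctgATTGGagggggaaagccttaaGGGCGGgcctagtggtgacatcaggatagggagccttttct
The Col4a1 and Col4a2 stretch held a GC box, Col6a1 an AP-1 site 99 bases before its start, and Col20a1 a CCAAT box 62 and a GC box 41 bases before its start. None of the 4 motifs was in the Col6a3 window. A GC box was found in 18 of the 30 collagen windows and in 32.4% of 27457 windows of the same length. The CCAAT box was in 8 of the 30 and in 34.3% of all, the TATA box in 4 and in 13.1%, and the AP-1 site in 1 and in 6.36%. The median GC content was 59.8% over the collagen windows and 52.0% over all. These are letter matches only and say nothing of binding.

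Levels are log2 processed spot signals from which the array's own 75th percentile was subtracted, so that 0 is that percentile, and are listed from replicate 1 to replicate 4. A negative level can still be a measured signal. Whether it was is given by the scanner software's mark for a spot well above background. Differences are between means of 4 arrays, on the log2 scale, with a standard error (SE) from 1 limma fit of all 16 arrays. A gene was called at a Benjamini-Hochberg adjusted p under 0.05 over all genes tested. For other probes of a gene, the adjusted p came from a separate limma fit, over all probes measured well enough to be tested. Where no array of a group was well above background for a gene, or for a single probe that is described, the change is given as at least N-fold, as the brighter group's mean over the lowest signal that the dimmer arrays could measure. That mean takes in every array of the brighter group. Where some of these were not above background, the fold is not a strict bound.

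The labels of the CD90 and p75 groups were checked first. Thy1 stood at 3.12 to 3.76 on the CD90 arrays and at −1.80 to −1.11 on the p75 arrays. It was also above background on 2 TRKA arrays and 1 TRKA-TGF array. Ngfr stood at 2.82 to 3.32 on the p75 arrays and was also above background on all 4 TRKA-TGF arrays, at −1.42 to 0.19, on 2 CD90 arrays, at up to −1.34, and on no TRKA array. All 8 markers of ensheathing glia, Ngfr among them, were well above background on every p75 array. As p75 cells were sorted by Ngfr, this count repeats the check of Ngfr in part. Of all spots, 51.4 to 57.5% were well above background on the TRKA arrays and 66.4 to 72.4% on the other 12 arrays. The median processed signal was 22.8 to 39.2 on the TRKA arrays and 132.5 to 219.1 on the others. Correlations between replicates were 0.74 to 0.76 in TRKA cells and 0.84 to 0.91 in the other populations. The p75 and TRKA arrays shared a slide and scan, as did the TRKA-TGF and CD90 arrays. For the remaining 4 comparisons slide cannot be told apart from group, and within a slide row cannot be told apart from group.

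Counted at a single probe per gene, collagen genes were measured most broadly in the CD90 and p75 cells and least in the TRKA cells. Per array, 29 to 33 of the 38 genes were well above background in CD90 cells and 28 to 33 in p75 cells, against 16 to 24 in TRKA cells and 23 to 26 in TRKA-TGF cells. On all 4 arrays of a group, 28 genes were measured in CD90, 25 in p75, 12 in TRKA and 19 in TRKA-TGF cells. Over all 26207 named genes on the array the same shares were 60.7, 58.9, 41.1 and 59.2%. Type VI stood out by class, with 3 of 4 chains measured on every CD90 array and none on every array of any other population. Col22a1, Col24a1 and Col4a4 were well above background on 1, 3 and 0 of the 16 arrays and were not tested.

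**Figure D1:**
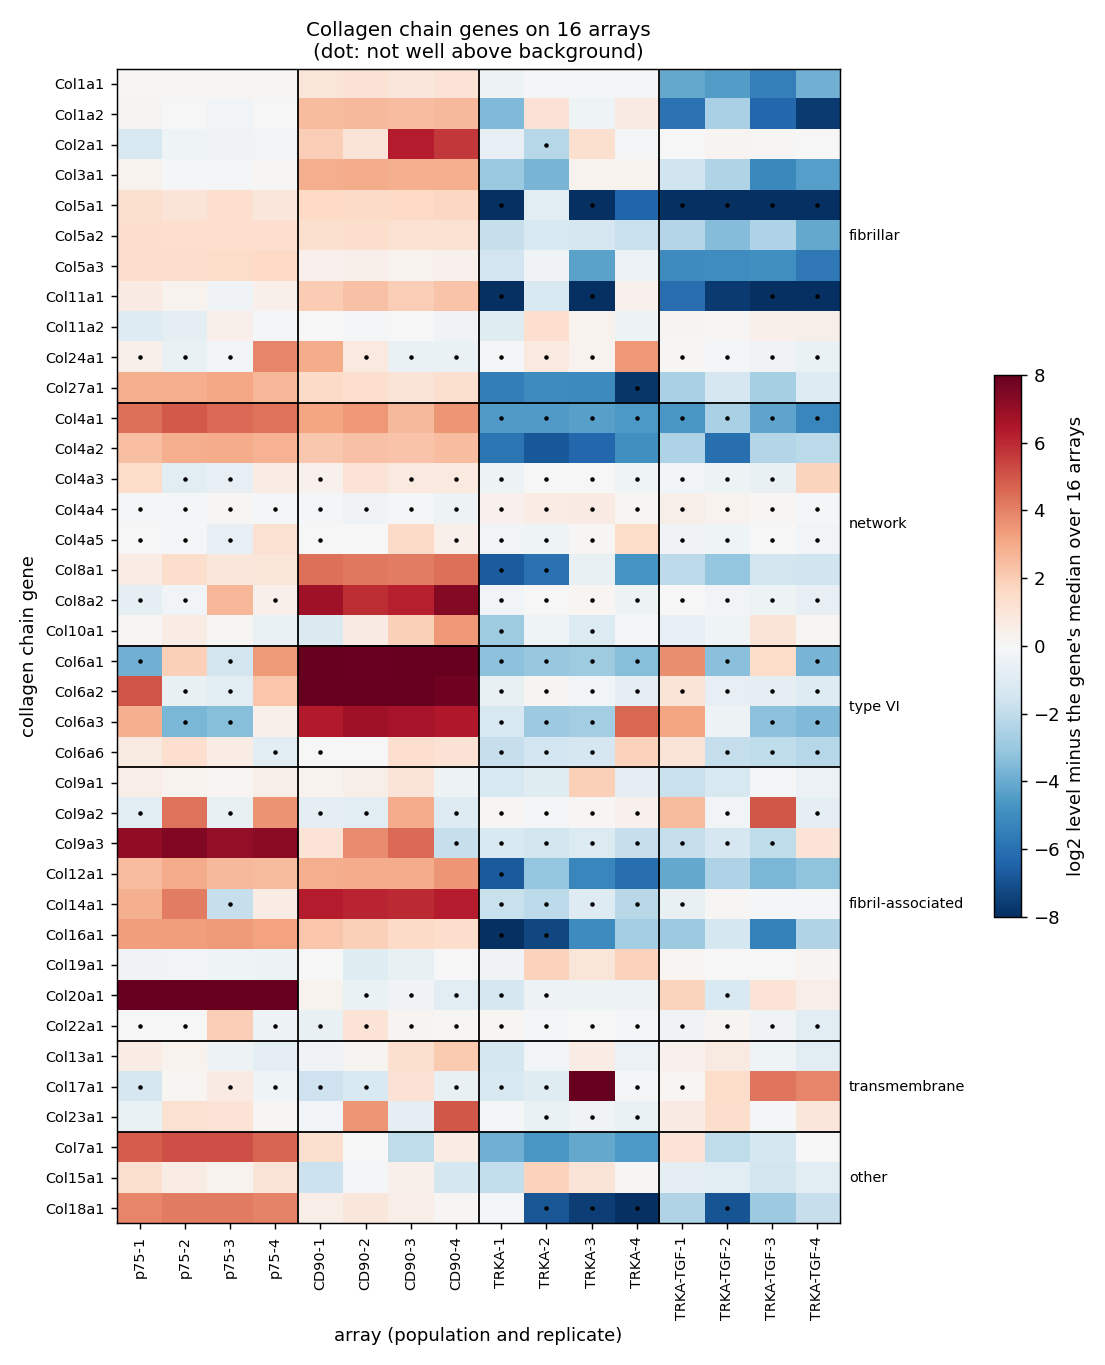
Levels of the 38 collagen chain genes (rows, by class) on the 16 arrays (columns, by population), as log2 level minus the gene's median over the arrays, with the colour range ending at 8 on either side. Each gene is shown by a single probe. Dots mark arrays on which that probe was not well above background. They were densest in the TRKA columns, where 16 to 24 genes were measured per array.

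Against p75 cells, CD90 cells had higher type VI chains (Col6a1, Col6a2, Col6a3), Col8a2, Col14a1 and Col2a1, and lower Col20a1, Col9a3 and Col7a1. In all, 9 of 35 collagen genes were called, 6 higher and 3 lower, where 7.25% of all genes tested were called, 3.68% higher and 3.57% lower. The median difference was 0.37 over the 35 genes and 0.05 over all genes. The arrays of the groups did not overlap for 20 collagen genes, 12 higher and 8 lower, against 19% of all genes. With the CD90 and p75 arrays alone in the fit, 16 genes were called, 9 higher and 7 lower, and 6 of them were among the 9. The 10 added there were Col1a1, Col1a2, Col3a1, Col11a1 and Col8a1 (higher) and Col4a1, Col5a3, Col16a1, Col18a1 and Col27a1 (lower), while Col2a1, Col9a3 and Col14a1 were not called (adjusted p = 0.0795, 0.0510 and 0.0529). The adjusted p of the 10 ran from 0.000109 to 0.0218 in that fit. The main fit pools the spread of all populations, so its SE can be wider than the spread within CD90 and p75 cells.

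Compared with both, the TRKA cells had lower collagen genes in most classes. Against p75 cells, 15 of 35 were lower and 1 was higher, where 35.7% of all genes were called (18.8% higher, 16.9% lower), with a median of −1.56 over the collagen genes and −0.01 over all. Against CD90 cells, 23 were lower and 1 higher, where 34.9% of all genes were called (18.3% higher, 16.6% lower), with medians of −3.30 and −0.09. In both comparisons the higher gene was Col19a1. The arrays did not overlap for 14 collagen genes against p75 (31.5% of all genes) and 21 against CD90 (30% of all genes), all of them lower in TRKA cells. The 2 comparisons share the TRKA arrays and are not independent. Beside these counts stand summed levels of marker lists, the log2 of the sum of linear levels, in which the brightest markers weigh most. For 8 macrophage markers the summed level was 8.30 to 8.75 in TRKA and 6.95 to 7.05 in TRKA-TGF cells. It was 2.76 to 3.86 in CD90 and 1.31 to 2.47 in p75 cells. The 8 fibroblast markers held no collagen, but held Thy1, the gene of the CD90 sort. Their summed level was 5.54 to 5.85 in CD90 and 1.48 to 2.23 in p75 cells. It was −3.42 to 2.90 in TRKA and −1.99 to 0.03 in TRKA-TGF cells. On the TRKA arrays none of these 8 was above background on all 4, and Dcn and Lum were above it on no array. The macrophage markers were all above background on every TRKA array, and 4 of 8 on every p75 array. The summed level of 4 smooth muscle markers was 6.61 to 6.72 in CD90, 4.30 to 4.66 in p75, 0.69 to 3.29 in TRKA and 0.12 to 2.54 in TRKA-TGF cells. That of the 8 ensheathing glia markers, with Ngfr of the p75 sort among them, was 6.52 to 6.64 in p75, −0.04 to 0.81 in CD90, −1.85 to 0.06 in TRKA and 1.36 to 1.58 in TRKA-TGF cells. Of these markers, all 4 of smooth muscle and 2 of the glia were above background on every TRKA array, and 2 of the glia were on none. The part of all these markers, which also moved with CD90 versus p75 and TRKA-TGF versus TRKA, and of the lower share of measured spots, in the collagen differences was not tested.

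Against TRKA cells, the TRKA-TGF cells had lower Col1a1, Col1a2, Col5a2 and Col5a3 and higher Col27a1, Col4a2, Col7a1 and Col12a1. These 8 of 35 stood beside 26.4% called over all genes (13.5% higher, 12.9% lower), with medians of 0.32 over the collagen genes and 0.19 over all. The arrays did not overlap for 7 collagen genes, 4 higher and 3 lower (26.4% of all genes). The split of 4 higher and 4 lower calls depended on the scaling. It was 7 higher and 3 lower with the percentile taken over probes measured on all arrays, and 2 higher and 5 lower with quantile normalization. Compared with p75 and CD90 cells, 17 and 19 collagen genes were lower in TRKA-TGF cells and none was higher, where 15.1 and 14.9% of all genes were called in either direction. Of all genes, 7.97% were higher and 7.15% lower than in p75 cells, and 7.72% higher and 7.19% lower than in CD90 cells. The arrays did not overlap for 21 collagen genes against p75 (2 higher, 19 lower; 28.8% of all genes) and 22 against CD90 (1 higher, 21 lower; 28.6% of all genes). The medians were −1.81 and −4.02 over the collagen genes and 0.14 and 0.15 over all. For all genes the higher share among calls was 52.7% in TRKA versus p75 and 51.1% in TRKA-TGF versus TRKA, and 20.7 and 82.9% with the other percentile.

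**Figure D2:**
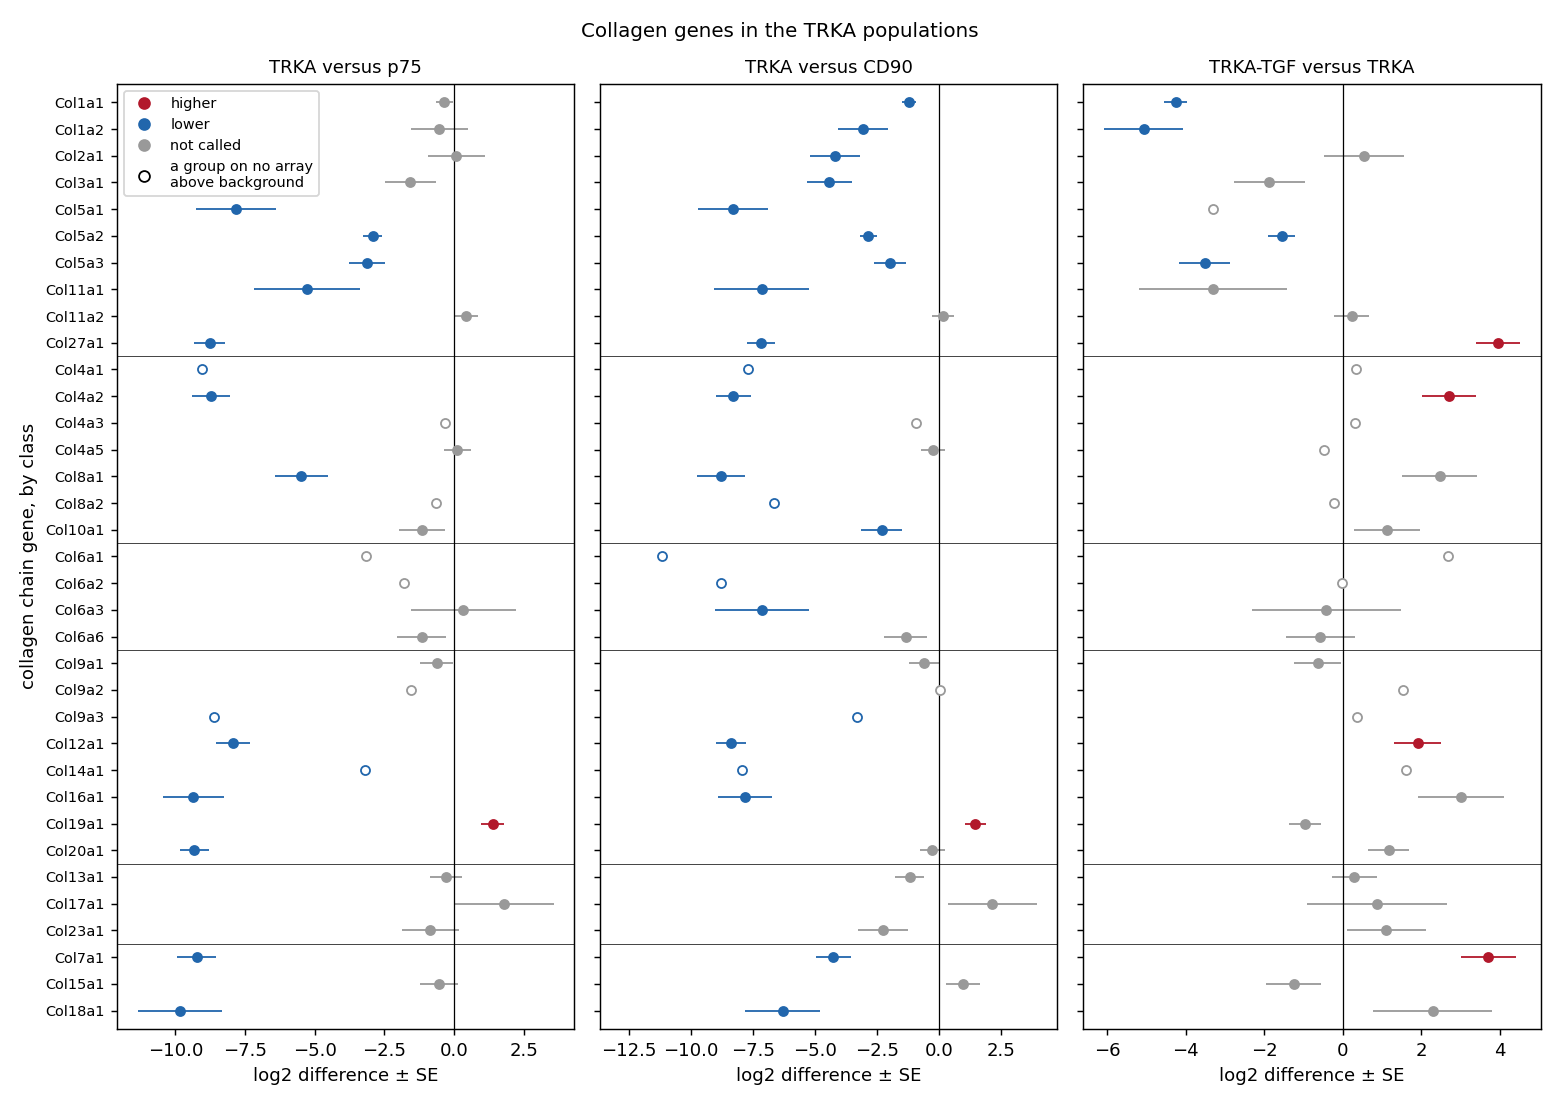
Log2 differences with SE of the 35 tested collagen genes (rows, by class) for TRKA minus p75, TRKA minus CD90 and TRKA-TGF minus TRKA (panels); red is higher, blue lower and grey not called, and open points, where 1 or both groups were above background on no array, have no measured size. Most called points lay left of 0 in the first 2 panels (15 and 23 lower), and 4 lay on each side in the third.

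Of the 10 fibrillar genes tested, 9 were lower in TRKA than in CD90 cells and 5 lower than in p75 cells, with none higher. In TRKA-TGF cells 4 were lower and 1 higher than in TRKA cells (median −2.59), 8 were lower than in p75 and 9 lower than in CD90 cells, while 1 was higher in CD90 than in p75 cells. With the CD90 and p75 arrays alone in the fit, Col1a1, Col1a2, Col3a1 and Col11a1 were called higher in CD90 cells. Col5a3 and Col27a1 were called lower there, and Col2a1 was not called. Both type I genes were measured on every array. Col1a1, the major chain of type I collagen, stood at 7.25, 7.16, 7.25 and 7.24 in p75 cells, 8.04, 8.26, 7.98 and 8.16 in CD90 cells, 6.69, 7.01, 6.91 and 6.93 in TRKA cells and 2.99, 2.63, 1.65 and 3.23 in TRKA-TGF cells. All TRKA-TGF arrays lay below all others, and every CD90 array lay above the rest. TRKA-TGF cells differed from TRKA cells by −4.26 ± 0.29 (SE; adjusted p = 3.42e-07), from p75 cells by −4.60 and from CD90 cells by −5.48, all called. TRKA cells were lower than CD90 cells by a difference of −1.22 ± 0.29 (SE; adjusted p = 0.00485). The difference from p75 cells was −0.34 ± 0.29 (SE; adjusted p = 0.392). It was −1.23 and called with quantile normalization, with the authors' values, which are quantile-normalized too, and with the other percentile. CD90 minus p75 was 0.88 ± 0.29 (SE; adjusted p = 0.0961), without overlap of the arrays. A second Col1a1 probe gave −3.29 for TRKA-TGF minus TRKA and 2.38 for CD90 minus p75 (adjusted p = 0.0106 and 0.121).

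Col1a2, the partner chain of type I, stood at 3.17, 2.98, 2.75 and 2.96 in p75 and 5.48, 5.56, 5.45 and 5.55 in CD90 cells. TRKA arrays spread from a low of −0.58 on replicate 1 to 4.12, 2.61 and 3.61 on replicates 2 to 4, and TRKA-TGF arrays stood at −2.93, 0.36, −3.29 and −4.66. TRKA-TGF minus TRKA was −5.07 ± 1.01 (SE; adjusted p = 0.00211), though TRKA-TGF replicate 2 lay above TRKA replicate 1. CD90 cells lay above every other array. TRKA minus CD90 was −3.07 ± 1.01 (SE; adjusted p = 0.0302) and not called without TRKA replicate 1 (−2.06, adjusted p = 0.0767) or without any 1 CD90 array (adjusted p up to 0.0593). The CD90 minus p75 difference was 2.55 ± 1.01 (SE; adjusted p = 0.18). That SE pools all populations, with SDs of 0.05 in CD90, 0.17 in p75, 2.11 in TRKA and 2.13 in TRKA-TGF cells. With the CD90 and p75 arrays alone in the fit, this difference was called (adjusted p = 0.0002). TRKA-TGF cells were lower than p75 cells by a difference of −5.60 ± 1.01 (SE; adjusted p = 0.00142) and than CD90 cells by −8.14.

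Col3a1, the chain of type III collagen found with type I in soft tissue, also stood highest on the CD90 arrays. It stood at 4.03, 3.69, 3.69 and 3.86 in p75, 6.69, 6.72, 6.62 and 6.65 in CD90, 0.83, 0.07, 4.07 and 4.06 in TRKA and 2.18, 1.37, −1.38 and −0.64 in TRKA-TGF cells. The CD90 arrays lay above all others, while TRKA replicates 3 and 4 reached the p75 level and replicates 1 and 2 did not. The TRKA minus CD90 difference was −4.42 ± 0.91 (SE; adjusted p = 0.00176), TRKA-TGF minus CD90 −6.29 ± 0.91 (SE; adjusted p = 0.000258) and TRKA-TGF minus p75 −3.44 ± 0.91 (SE; adjusted p = 0.0193). The last was not called without TRKA-TGF replicate 3 or 4 (adjusted p = 0.0677 and 0.0629). The difference of CD90 minus p75 was 2.85 ± 0.91 (SE; adjusted p = 0.0837), and was called with the CD90 and p75 arrays alone in the fit (adjusted p = 0.000109). TRKA-TGF minus TRKA was −1.87 ± 0.91 (SE; adjusted p = 0.151), which was called without TRKA replicate 2 (−2.60, adjusted p = 0.0424).

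Type V chains seed type I fibrils, and all 3 were lower in both TRKA populations than in p75 and CD90 cells. Col5a1 stood at 3.43, 3.19, 3.49 and 3.04 in p75 and 3.76, 3.68, 3.77 and 3.80 in CD90 cells. In TRKA cells it was measured at 1.29 on replicate 2 and −4.15 on replicate 4 only, and in TRKA-TGF cells on no array. TRKA-TGF cells were thus at least 736-fold below CD90 cells (adjusted p = 6e-05, measured means −7.84 and 3.75) and at least 534-fold below p75 cells (adjusted p = 7.84e-05, mean 3.29). The difference of TRKA minus CD90 was −8.29 ± 1.42 (SE; adjusted p = 0.000417) and TRKA minus p75 −7.83 ± 1.42 (SE; adjusted p = 0.000666). TRKA-TGF cells were at least 2.35-fold below TRKA cells, which was not called (adjusted p = 0.106), and called without TRKA replicate 1 (at least 5.05-fold, adjusted p = 0.0292) or 3 (at least 4.6-fold, adjusted p = 0.0426).

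Col5a2 stood at 6.14, 6.09, 6.07 and 6.11 in p75, 6.03, 6.17, 5.99 and 5.96 in CD90, 2.88, 3.52, 3.40 and 2.96 in TRKA and 2.37, 1.28, 2.27 and 0.62 in TRKA-TGF cells. The TRKA arrays lay below all p75 and CD90 arrays and above all TRKA-TGF arrays. TRKA minus p75 was −2.91 ± 0.34 (SE; adjusted p = 1.8e-05) and TRKA minus CD90 −2.85 ± 0.34 (SE; adjusted p = 2.19e-05). The difference of TRKA-TGF minus TRKA was −1.55 ± 0.34 (SE; adjusted p = 0.00418), but −0.85 with quantile normalization (adjusted p = 0.0626) and −0.79 with the other percentile (adjusted p = 0.0805), neither of them called. A second probe gave −0.74 there (adjusted p = 0.0963). Against p75 and CD90 cells, TRKA-TGF cells differed by −4.47 ± 0.34 and −4.40 ± 0.34, both called.

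Col5a3 stood at 4.60, 4.62, 4.70 and 4.83 in p75, 3.56, 3.61, 3.47 and 3.56 in CD90, 1.66, 2.97, −1.05 and 2.74 in TRKA and −1.84, −1.77, −1.70 and −2.47 in TRKA-TGF cells. No population overlapped with another in this gene, the p75 arrays being highest. For TRKA-TGF minus TRKA, the difference was −3.52 ± 0.65 (SE; adjusted p = 0.00116), TRKA minus p75 −3.11 ± 0.65 (SE; adjusted p = 0.00186) and TRKA minus CD90 −1.97 ± 0.65 (SE; adjusted p = 0.0295). The last was lost without any 1 CD90 array (adjusted p up to 0.0585). For CD90 minus p75, the difference was −1.14 ± 0.65 (SE; adjusted p = 0.415). TRKA-TGF cells differed from p75 cells by −6.63 ± 0.65 and from CD90 cells by −5.50 ± 0.65, both called.

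Col11a1, the type XI chain of cartilage and of thin fibrils, stood at 3.10, 2.69, 2.14 and 2.80 in p75 and 4.46, 4.75, 4.36 and 4.69 in CD90 cells. TRKA replicates 2 and 4 reached 1.23 and 2.76 while replicates 1 and 3 were not above background, and TRKA-TGF replicates 1 and 2 stood at −3.67 and −5.24 with replicates 3 and 4 not above background. For TRKA minus CD90, the difference was −7.15 ± 1.90 (SE; adjusted p = 0.00929) and was not called with only the 2 groups in the fit (adjusted p = 0.0705). The TRKA minus p75 difference was −5.27 ± 1.90 (SE; adjusted p = 0.0438) and not called without any 1 p75 array or TRKA replicate 1 or 3 (adjusted p up to 0.127). TRKA-TGF cells differed from CD90 cells by −10.46 ± 1.90 and from p75 cells by −8.58 ± 1.90, both called. CD90 minus p75 was 1.88 ± 1.90 (SE; adjusted p = 0.722) at the probe used and 2.19 (adjusted p = 5.41e-05) at a probe nearer the transcript's 5′ end. Another probe gave 1.11 (adjusted p = 0.0875), and neither of these probes was above background on any TRKA or TRKA-TGF array. There TRKA cells were at least 216-fold below p75 cells (adjusted p = 7.35e-12) at the first of them and at least 1.25-fold (adjusted p = 0.000123) at the other. TRKA-TGF minus TRKA was −3.31 ± 1.90 (SE; adjusted p = 0.224), and −4.97 and called without TRKA replicate 1 (adjusted p = 0.0484).

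Col27a1, a fibrillar chain of developing cartilage, stood at 3.41, 3.43, 3.61 and 3.15 in p75, 2.06, 1.84, 1.56 and 1.80 in CD90 and −2.11, −0.83, −2.16 and −0.55 in TRKA-TGF cells. TRKA replicates 1 to 3 stood at −5.06, −4.53 and −4.56, and replicate 4 was not above background. The order p75, CD90, TRKA-TGF and TRKA held for every array. TRKA-TGF cells were higher than TRKA cells by 3.95 ± 0.55 (SE; adjusted p = 0.000152). TRKA cells were lower than p75 cells by a difference of −8.76 ± 0.55 (SE; adjusted p = 4.62e-08) and differed from CD90 cells by −7.18 ± 0.55. TRKA-TGF cells were also below p75 (−4.81 ± 0.55) and CD90 cells (−3.23 ± 0.55), and all 4 of these differences were called. The CD90 minus p75 difference was −1.59 ± 0.55 (SE; adjusted p = 0.118).

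Col2a1, the main chain of cartilage collagen, was low outside the CD90 cells. It stood at −4.59, −3.64, −3.57 and −3.48 in p75, −1.29, −2.25, 2.99 and 2.35 in CD90, −3.95, −5.57, −2.02 and −3.45 in TRKA and −3.29, −3.08, −3.18 and −3.27 in TRKA-TGF cells, with TRKA replicate 2 not above background. CD90 replicates 3 and 4 lay more than 3 log2 units above replicates 1 and 2, which still exceeded every p75 array. The difference of CD90 minus p75 was 4.27 ± 1.02 (SE; adjusted p = 0.02) and not called without CD90 replicate 3 (3.42, adjusted p = 0.0579), CD90 replicate 4 (3.64, adjusted p = 0.0641) or p75 replicate 1 (4.01, adjusted p = 0.0601). TRKA minus CD90 was −4.19 ± 1.02 (SE; adjusted p = 0.00554) and not called with only the 2 groups in the fit (adjusted p = 0.0627). TRKA-TGF minus CD90 was −3.65 ± 1.02 (SE; adjusted p = 0.0268) and lost without CD90 replicate 3 or 4 or any 1 TRKA-TGF array (adjusted p up to 0.0851). Col11a2, the second type XI chain, was measured on all 16 arrays at −2.94 to −1.50 in p75, −2.21 to −1.88 in CD90, −2.89 to −0.59 in TRKA and −1.85 to −1.44 in TRKA-TGF cells, and was called in none of the 6 comparisons. At the probe used, it was called higher in TRKA cells than in p75 and CD90 cells with quantile normalization (1.34 and 1.16). A second Col11a2 probe was above background on 3 CD90 and 2 p75 arrays and on no TRKA or TRKA-TGF array. There TRKA cells were at least 2.16-fold below CD90 cells and at least 1.19-fold below p75 cells. Neither was called (adjusted p = 0.115 and 0.239). Of the chondrocyte markers, Acan was above background on all 4 CD90 arrays, 1 p75 array and no other, Cnmd on 1 array each of CD90, TRKA and TRKA-TGF, and Comp and Matn1 on all 16 arrays. Their part in the Col2a1 result was not tested.

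Among the network-forming chains, the common pair of basement membrane collagen IV was lower in TRKA than in p75 cells, and both type VIII chains stood highest on the CD90 arrays. Of the 7 network genes tested, 3 were lower in TRKA than in p75 cells, 5 lower than in CD90 cells, and in TRKA-TGF cells 3 and 4 were lower and none higher. 1 was higher in CD90 than in p75 cells and 1 higher in TRKA-TGF than in TRKA cells. Col4a2 stood at 4.43, 4.89, 4.95 and 4.79 in p75, 4.19, 4.38, 4.28 and 4.48 in CD90, −3.85, −4.78, −4.30 and −2.88 in TRKA and −0.44, −4.02, −0.36 and −0.18 in TRKA-TGF cells. The difference of TRKA minus p75 was −8.72 ± 0.70 (SE; adjusted p = 4.97e-07) and TRKA minus CD90 −8.29 ± 0.70 (SE; adjusted p = 9.62e-07), with all TRKA arrays below all p75 and CD90 arrays. The TRKA-TGF minus TRKA difference was 2.70 ± 0.70 (SE; adjusted p = 0.0111), with TRKA-TGF replicate 2 inside the TRKA range, and 1.42 and not called with quantile normalization (adjusted p = 0.146). TRKA-TGF cells differed from p75 and CD90 cells by −6.02 ± 0.70 and −5.58 ± 0.70, both called. For CD90 minus p75, the difference was −0.43 ± 0.70 (SE; adjusted p = 0.856).

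Col4a1, its partner chain, stood at 1.47, 1.93, 1.58 and 1.37 in p75 and 0.20, 0.48, −0.35 and 0.56 in CD90 cells at the probe used, and was not above background on any TRKA or TRKA-TGF array there. A second probe was above background on all 16 arrays and gave smaller differences. At the first probe, TRKA cells were at least 133-fold below p75 cells (adjusted p = 3.42e-09) and at least 51.5-fold below CD90 cells (adjusted p = 2.5e-08), and at the second the differences were −2.90 (adjusted p = 0.000634) and −1.13 (adjusted p = 0.112). TRKA-TGF cells were at least 161-fold below p75 cells (adjusted p = 9.37e-09) and at least 62.6-fold below CD90 cells (adjusted p = 7.8e-08) at the first, against −2.42, called, and −0.65 (adjusted p = 0.517) at the second. CD90 minus p75 was −1.37 ± 0.44 (SE; adjusted p = 0.0868), without overlap of the arrays. The probe used lies at 83146135 to 83146194 and the second at 83157776 to 83157835 of chromosome 16 on rn4, the build in the file headers.

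Col8a1 and Col8a2, the chains of the short-chain collagen of vessel and corneal membranes, were measured on every CD90 array. Col8a2 stood at −0.73, −1.58, −1.28 and −0.17 on the CD90 arrays and was otherwise above background on p75 replicate 3 only (−4.84). The CD90 minus p75 difference was 6.03 ± 0.57 (SE; adjusted p = 1.1e-05). TRKA cells were at least 22.9-fold below CD90 cells (adjusted p = 1.19e-06, measured means −7.61 and −0.94), and TRKA-TGF cells at least 28.4-fold (adjusted p = 1.79e-06, mean −7.82).

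Col8a1 stood at −0.39, 0.41, −0.11 and −0.04 in p75, 3.42, 3.24, 3.06 and 3.38 in CD90 and −3.09, −4.07, −2.44 and −2.59 in TRKA-TGF cells. TRKA replicates 3 and 4 stood at −1.61 and −5.76, and replicates 1 and 2 were not above background. No CD90 array overlapped with any other group. The difference of CD90 minus p75 was 3.31 ± 0.96 (SE; adjusted p = 0.0539) and was called with quantile normalization (3.66, adjusted p = 0.0275) and with normexp (3.25, adjusted p = 0.000159). TRKA minus p75 was −5.48 ± 0.96 (SE; adjusted p = 0.000501), TRKA minus CD90 −8.79 ± 0.96 and TRKA-TGF minus CD90 −6.32 ± 0.96, all called. The TRKA-TGF minus p75 difference was −3.01 ± 0.96 (SE; adjusted p = 0.0498), and each of the 8 arrays left out in turn ended that call (adjusted p up to 0.135). The difference of TRKA-TGF minus TRKA was 2.47 ± 0.96 (SE; adjusted p = 0.0749) and called without TRKA replicate 3 (3.77, adjusted p = 8.95e-05).

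Col10a1, the chain of hypertrophic cartilage, was measured on all arrays except TRKA replicates 1 and 3. It stood at −4.92, −4.44, −4.94 and −5.53 in p75, −6.15, −4.35, −3.10 and −1.56 in CD90, −7.85, −5.36, −6.10 and −5.11 in TRKA and −5.69, −5.38, −3.97 and −4.92 in TRKA-TGF cells. The difference of TRKA minus CD90 was −2.31 ± 0.84 (SE; adjusted p = 0.0455), with overlapping arrays. That call was lost with quantile normalization (−1.02, adjusted p = 0.427) and without CD90 replicate 2, 3 or 4 or TRKA replicate 1 or 3 (adjusted p = 0.0582 to 0.139; −1.57 without CD90 replicate 4). Of the remaining type IV chains tested, Col4a3 was above background on 2 p75, 1 CD90 and 1 TRKA-TGF arrays and Col4a5 on 1 p75, 2 CD90 and 1 TRKA arrays. Neither was called in any comparison of the main fit. With normexp, Col4a5 was called higher in TRKA than in p75 cells (adjusted p = 0.0101) and lower in TRKA-TGF than in TRKA cells (adjusted p = 0.0333). With the other percentile, Col4a3 was called lower in TRKA than in CD90 cells (adjusted p = 0.0152).

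The 3 main chains of type VI collagen were higher in CD90 cells than in each of the other populations. Col6a1 stood at 3.41, 3.33, 3.37 and 3.60 on the CD90 arrays. Elsewhere it was measured at −2.71 and −1.21 on p75 replicates 2 and 4 and at −0.88 and −3.13 on TRKA-TGF replicates 1 and 3, and on no TRKA array. Every CD90 array thus lay more than 4 log2 units above every other array. For CD90 minus p75, the difference was 8.02 ± 1.64 (SE; adjusted p = 0.00673) and TRKA-TGF minus CD90 −8.49 ± 1.64 (SE; adjusted p = 0.00249). TRKA cells were at least 474-fold below CD90 cells (adjusted p = 0.000114, measured means −7.74 and 3.43).

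Col6a2 stood at 1.42, 1.47, 1.33 and 0.55 on the CD90 arrays, at −2.22 and −5.03 on p75 replicates 1 and 4, and was above background on no other array. CD90 minus p75 was 6.98 ± 1.01 (SE; adjusted p = 0.000439). TRKA cells were at least 101-fold (adjusted p = 1.44e-05, measured means −7.57 and 1.19) and TRKA-TGF cells at least 125-fold (adjusted p = 3.21e-05, mean −7.60) below CD90 cells. Of the p75 arrays, only replicate 4 measured both Col6a1 and Col6a2.

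Col6a3, the longest type VI chain, stood at 1.74, 2.16, 1.93 and 1.76 on the CD90 arrays. It was measured at −1.78 and −4.20 on p75 replicates 1 and 4, at −0.04 on TRKA replicate 4 and at −1.45 and −5.05 on TRKA-TGF replicates 1 and 2. No other array overlapped with the CD90 arrays. The CD90 minus p75 difference was 7.46 ± 1.90 (SE; adjusted p = 0.0279) and not called without any 1 CD90 array or p75 replicate 2 or 3 (6.57 and 6.64; adjusted p up to 0.0878). For TRKA minus CD90, the difference was −7.12 ± 1.90 (SE; adjusted p = 0.00948). The TRKA-TGF minus CD90 difference was −7.54 ± 1.90 (SE; adjusted p = 0.0147), lost without TRKA-TGF replicate 4 (−6.70, adjusted p = 0.0507). TRKA replicate 4, the array with the highest Col6a3 of its group, also had the highest summed fibroblast level of its group (2.90), and the part of this in the result was not tested. None of the 3 chains was called between p75, TRKA and TRKA-TGF cells with all arrays. Without p75 replicate 1, Col6a1 was called lower in TRKA than in p75 cells (at least 4.4-fold, adjusted p = 0.0485). Col6a6, a later-found type VI chain, ranged over −6.17 to −4.77 in CD90 and −6.97 to −4.82 in p75 cells, was measured on 1 TRKA and 1 TRKA-TGF array, and was called in no comparison with all arrays. Without TRKA replicate 4 it was called lower in TRKA than in CD90 cells (adjusted p = 0.0387) and without TRKA-TGF replicate 1 in TRKA-TGF cells (at least 1.29-fold, adjusted p = 0.0439), and each left no array of that group above background.

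**Figure D3:**
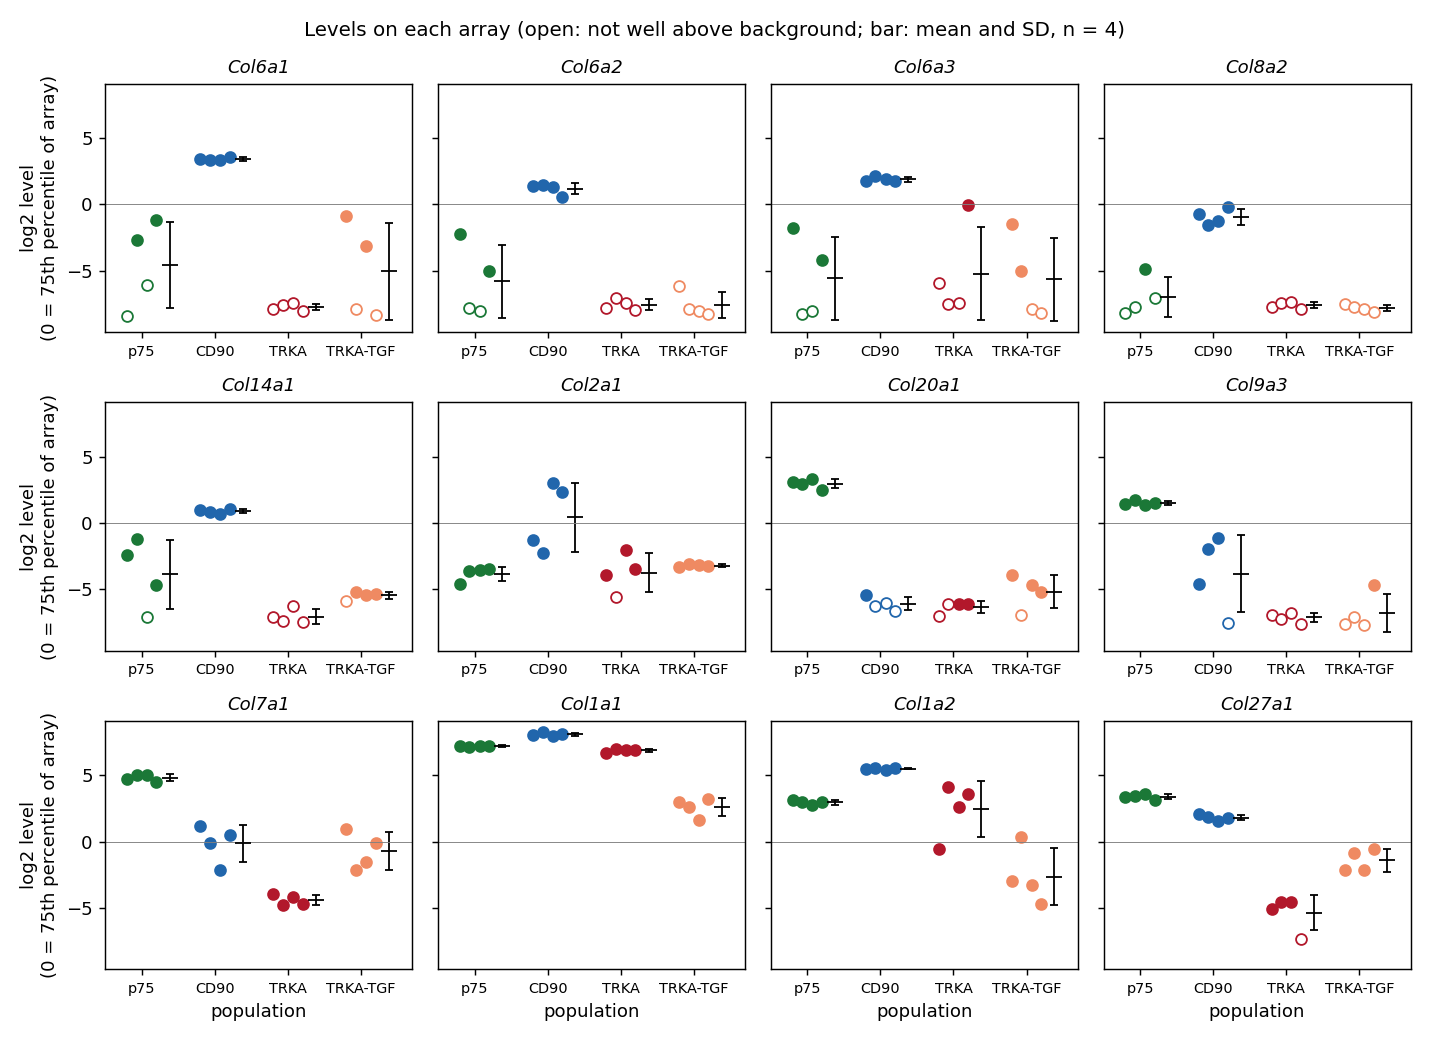
Log2 levels of 12 collagen genes on each array (points, replicates 1 to 4 from left to right within a population; open points not well above background), with the mean and SD of 4 arrays beside them. CD90 points stood alone at the top for Col6a1 (3.33 to 3.60), Col6a2, Col6a3, Col8a2 and Col14a1, and p75 points for Col20a1 (2.52 to 3.32), Col9a3 and Col7a1.

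The fibril-associated chains showed both directions between CD90 and p75 cells. Of 8 tested, 1 was higher and 2 lower in CD90 cells. In TRKA cells 1 was higher and 5 lower than in p75, and 1 higher and 4 lower than in CD90 cells. Col14a1, a chain on the surface of type I fibrils, stood at 1.00, 0.82, 0.72 and 1.04 on the CD90 arrays and at −2.41, −1.19 and −4.70 on p75 replicates 1, 2 and 4. It was above background on no TRKA array and stood at −5.18, −5.43 and −5.36 on TRKA-TGF replicates 2 to 4. The difference of CD90 minus p75 was 4.74 ± 0.91 (SE; adjusted p = 0.00426), and TRKA-TGF minus CD90 −6.35 ± 0.91 (SE; adjusted p = 0.000229), without overlap of the arrays. TRKA cells were at least 81.8-fold below CD90 cells (adjusted p = 1.38e-05, measured means −7.05 and 0.89) and at least 3.06-fold below p75 cells (adjusted p = 0.0136, mean −3.85). The latter call was lost with normexp (adjusted p = 0.209) and quantile normalization (adjusted p = 0.0633). At a second probe, above background on no TRKA or TRKA-TGF array, TRKA cells were at least 3.68-fold (adjusted p = 3.48e-06) and TRKA-TGF cells at least 4.56-fold (adjusted p = 3.87e-06) below p75 cells. The difference of TRKA-TGF minus p75 was −1.61 ± 0.91 (SE; adjusted p = 0.31) at the probe used, and was called there without p75 replicate 3 (−2.69, adjusted p = 0.0107).

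Col20a1 stood at 3.11, 2.95, 3.32 and 2.52 on the p75 arrays, against −5.41 on the 1 CD90 array that measured it. It was measured at −6.11 and −6.12 on TRKA replicates 3 and 4 and at −3.95, −4.64 and −5.20 on TRKA-TGF replicates 1, 3 and 4. All p75 arrays lay more than 6 log2 units above every other array. For CD90 minus p75, the difference was −9.04 ± 0.52 (SE; adjusted p = 5.72e-08), TRKA minus p75 −9.32 ± 0.52 (SE; adjusted p = 1.38e-08) and TRKA-TGF minus p75 −8.15 ± 0.52 (SE; adjusted p = 8.47e-08). For TRKA-TGF minus TRKA, the difference was 1.17 ± 0.52 (SE; adjusted p = 0.117), called without TRKA-TGF replicate 2 (1.74, adjusted p = 0.00666), as was TRKA-TGF minus CD90 (1.47, adjusted p = 0.0263).

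Col9a3, a type IX chain of cartilage fibrils, stood at 1.41, 1.71, 1.35 and 1.50 in p75 cells. CD90 replicates 1 to 3 stood at −4.60, −1.96 and −1.16, TRKA-TGF replicate 4 at −4.65, and the other arrays were not above background. The p75 arrays lay above all others. CD90 minus p75 was −5.31 ± 1.09 (SE; adjusted p = 0.00731) and TRKA-TGF minus p75 −8.25 ± 1.09 (SE; adjusted p = 0.000111). TRKA cells were at least 124-fold below p75 cells (adjusted p = 3.56e-05, measured means −7.12 and 1.49). They were at least 3.13-fold below CD90 cells (adjusted p = 0.0309, mean −3.81). That call ended with normexp (adjusted p = 0.134), the replicate block (adjusted p = 0.0521) and only the 2 groups in the fit. So it did with quantile normalization and the authors' values, which are quantile-normalized too. It also ended without CD90 replicate 2 or 3 or TRKA replicate 2 or 4 (adjusted p up to 0.0973). The difference of TRKA-TGF minus CD90 was −2.94 ± 1.09 (SE; adjusted p = 0.0967), and called without CD90 replicate 4 (−4.19, adjusted p = 0.0035). Its partner Col9a1 stood at −2.38, −2.62, −2.73 and −2.42 in p75, −2.60, −2.45, −1.86 and −3.28 in CD90, −4.19, −3.87, −1.0 and −3.58 in TRKA and −4.65, −4.17, −3.04 and −3.35 in TRKA-TGF cells and was called in no comparison. Without TRKA replicate 3, TRKA minus p75 was −1.34 and TRKA minus CD90 −1.33, both called (adjusted p = 0.0215 and 0.0227). With quantile normalization, TRKA-TGF minus TRKA was −2.12 and called (adjusted p = 0.00456). Col9a2 was above background on 2 p75, 1 CD90 and 2 TRKA-TGF arrays and was not called.

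Col12a1 and Col16a1, fibril-associated chains of connective tissue and of several cultured cell types, stood higher on the CD90 and p75 arrays than on all others. Col12a1 stood at 3.56, 4.08, 3.69 and 3.63 in p75, 4.03, 4.07, 4.07 and 4.61 in CD90 and −3.03, −1.38, −2.55 and −2.15 in TRKA-TGF cells, and at −2.02, −4.11 and −4.96 on TRKA replicates 2 to 4. The TRKA minus p75 difference was −7.92 ± 0.61 (SE; adjusted p = 3.23e-07) and TRKA minus CD90 −8.37 ± 0.61 (SE; adjusted p = 2.51e-07). For TRKA-TGF minus p75, the difference was −6.02 ± 0.61 and TRKA-TGF minus CD90 −6.47 ± 0.61, both called and all 4 without overlap. TRKA-TGF minus TRKA was 1.90 ± 0.61 (SE; adjusted p = 0.0332) with overlapping arrays. It was 0.43 with quantile normalization (adjusted p = 0.588) and 0.81 with normexp (adjusted p = 0.119), and was lost without TRKA replicate 1, 3 or 4 or TRKA-TGF replicate 2, 3 or 4 (adjusted p up to 0.0989). At 2 other probes, not above background on any TRKA array, TRKA-TGF cells were higher by at least 2.83-fold (adjusted p = 7.84e-08) and at least 3.28-fold (adjusted p = 0.00581). The first of these probes was above background on all 4 TRKA-TGF arrays. The second was so on 2 of them, so its size rests in part on levels that were not measured. The CD90 minus p75 difference was 0.45 ± 0.61 (SE; adjusted p = 0.814).

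Col16a1 stood at 4.85, 4.86, 4.92 and 4.73 in p75, 3.75, 3.42, 3.09 and 2.97 in CD90 and −1.36, 0.10, −3.85 and −0.88 in TRKA-TGF cells, and at −3.51 and −1.21 on TRKA replicates 3 and 4. The p75 arrays lay above the CD90 arrays, and these above all others. The difference of TRKA minus p75 was −9.35 ± 1.10 (SE; adjusted p = 1.76e-05) and TRKA minus CD90 −7.82 ± 1.10 (SE; adjusted p = 7.78e-05). TRKA-TGF minus p75 was −6.34 ± 1.10 and TRKA-TGF minus CD90 −4.80 ± 1.10, both called. The difference of CD90 minus p75 was −1.53 ± 1.10 (SE; adjusted p = 0.551). The TRKA-TGF minus TRKA difference was 3.02 ± 1.10 (SE; adjusted p = 0.0574), and called without TRKA replicate 4 (4.12, adjusted p = 0.00507) or TRKA-TGF replicate 3 (3.80, adjusted p = 0.0244).

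Col19a1, a minor chain of basement membrane zones, stood at −2.38, −2.33, −2.45 and −2.52 in p75, −2.10, −3.11, −2.68 and −2.08 in CD90, −2.40, −0.27, −1.17 and −0.29 in TRKA and −1.97, −2.05, −2.12 and −1.86 in TRKA-TGF cells. TRKA replicates 2 to 4 lay above all other arrays, and replicate 1 lay among them. For TRKA minus p75, the difference was 1.39 ± 0.41 (SE; adjusted p = 0.0172) and TRKA minus CD90 1.46 ± 0.41 (SE; adjusted p = 0.013). Both fell to 0.50 and 0.48 and were not called with the other percentile (adjusted p = 0.344 and 0.339), and neither was called with only the 2 groups in the fit (adjusted p = 0.0891 and 0.101). The difference of TRKA-TGF minus TRKA was −0.97 ± 0.41 (SE; adjusted p = 0.1), and −1.42 and called without TRKA replicate 1 (adjusted p = 0.00377) or, at −1.62, with quantile normalization (adjusted p = 0.00286).

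The transmembrane chains were called in no comparison with all arrays. Col13a1, a chain of cell adhesion sites, was measured on all 16 arrays, at −2.16, −2.48, −3.15 and −3.52 in p75, −3.02, −2.56, −1.45 and −0.66 in CD90, −4.15, −2.95, −2.14 and −3.20 in TRKA and −2.42, −2.04, −3.13 and −3.69 in TRKA-TGF cells. Col23a1, at the probe used, stood at −5.60, −3.84, −3.99 and −4.97 in p75, −5.30, −1.50, −5.80 and −0.12 in CD90 and −4.42, −3.66, −5.15 and −4.13 in TRKA-TGF cells. There it was measured on TRKA replicate 1 only (−5.20). CD90 replicates 2 and 4 lay more than 3 log2 units above replicates 1 and 3. Col23a1 was called lower in TRKA than in CD90 cells without CD90 replicate 1 (−2.97, adjusted p = 0.0397) or 3 (−3.14, adjusted p = 0.0212). With the other percentile, Col13a1 and Col23a1 were both called lower there (−2.17 and −3.24, adjusted p = 0.00844 and 0.0221). A second Col23a1 probe was above background on 4 p75, 3 CD90 and 2 TRKA arrays and on no TRKA-TGF array. At that probe, TRKA-TGF cells were not called against p75, CD90 or TRKA cells (adjusted p = 0.213, 0.0594 and 0.766). Col17a1, the hemidesmosomal chain of epithelia, reached 2.12 on TRKA replicate 3 and was measured at −5.00, −2.25 and −2.60 on TRKA-TGF replicates 2 to 4, at −6.33 on p75 replicate 2 and at −5.33 on CD90 replicate 3. Without TRKA replicate 3, no TRKA array was above background and TRKA-TGF cells were called higher (at least 2.83-fold, adjusted p = 0.0256).

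Col7a1 and Col18a1, chains of anchoring fibrils and of basement membranes, were highest on the p75 arrays. Col7a1 stood at 4.72, 5.07, 5.05 and 4.53 in p75, 1.17, −0.11, −2.10 and 0.52 in CD90, −3.95, −4.76, −4.18 and −4.69 in TRKA and 0.99, −2.13, −1.53 and −0.09 in TRKA-TGF cells. The p75 arrays lay above and the TRKA arrays below all others. For CD90 minus p75, the difference was −4.97 ± 0.70 (SE; adjusted p = 0.000372), TRKA minus p75 −9.24 ± 0.70 (SE; adjusted p = 3.04e-07) and TRKA minus CD90 −4.26 ± 0.70 (SE; adjusted p = 0.000305). For TRKA-TGF minus TRKA, the difference was 3.71 ± 0.70 (SE; adjusted p = 0.00145) and TRKA-TGF minus p75 −5.53 ± 0.70 (SE; adjusted p = 7.46e-05). For TRKA-TGF minus CD90, the difference was −0.56 ± 0.70 (SE; adjusted p = 0.706).

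Col18a1, whose C-terminal fragment is endostatin, stood at 4.81, 5.08, 5.09 and 4.88 in p75 and 1.45, 1.79, 1.46 and 1.02 in CD90 cells. It was measured at 0.81 on TRKA replicate 1 only and at −1.47, −2.01 and −0.91 on TRKA-TGF replicates 1, 3 and 4. TRKA minus p75 was −9.84 ± 1.51 (SE; adjusted p = 0.000175), TRKA minus CD90 −6.30 ± 1.51 (SE; adjusted p = 0.00496) and TRKA-TGF minus p75 −7.55 ± 1.51 (SE; adjusted p = 0.00299). CD90 minus p75 was −3.53 ± 1.51 (SE; adjusted p = 0.227), without overlap of the arrays. TRKA-TGF minus CD90 was −4.02 ± 1.51 (SE; adjusted p = 0.101), and called with quantile normalization (−4.47, adjusted p = 0.0444) and normexp (−3.27, adjusted p = 0.0133). TRKA-TGF minus TRKA was 2.28 ± 1.51 (SE; adjusted p = 0.295). Without TRKA replicate 1, the only TRKA array that measured it, TRKA-TGF cells were called higher (at least 7.04-fold, adjusted p = 0.00501). Col15a1, the related basement membrane chain, stood at 0.79, 0.12, −0.26 and 0.51 in p75, −2.21, −0.62, −0.08 and −1.94 in CD90, −2.47, 1.33, 0.51 and −0.39 in TRKA and −1.31, −1.37, −2.0 and −1.37 in TRKA-TGF cells, and was called in no comparison. Without TRKA replicate 1 it was called in TRKA versus CD90 (1.69, adjusted p = 0.0265) and TRKA-TGF versus TRKA (−2.0, adjusted p = 0.0149), and with quantile normalization in TRKA-TGF versus p75 (−2.10, adjusted p = 0.0331).

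**Figure D4:**
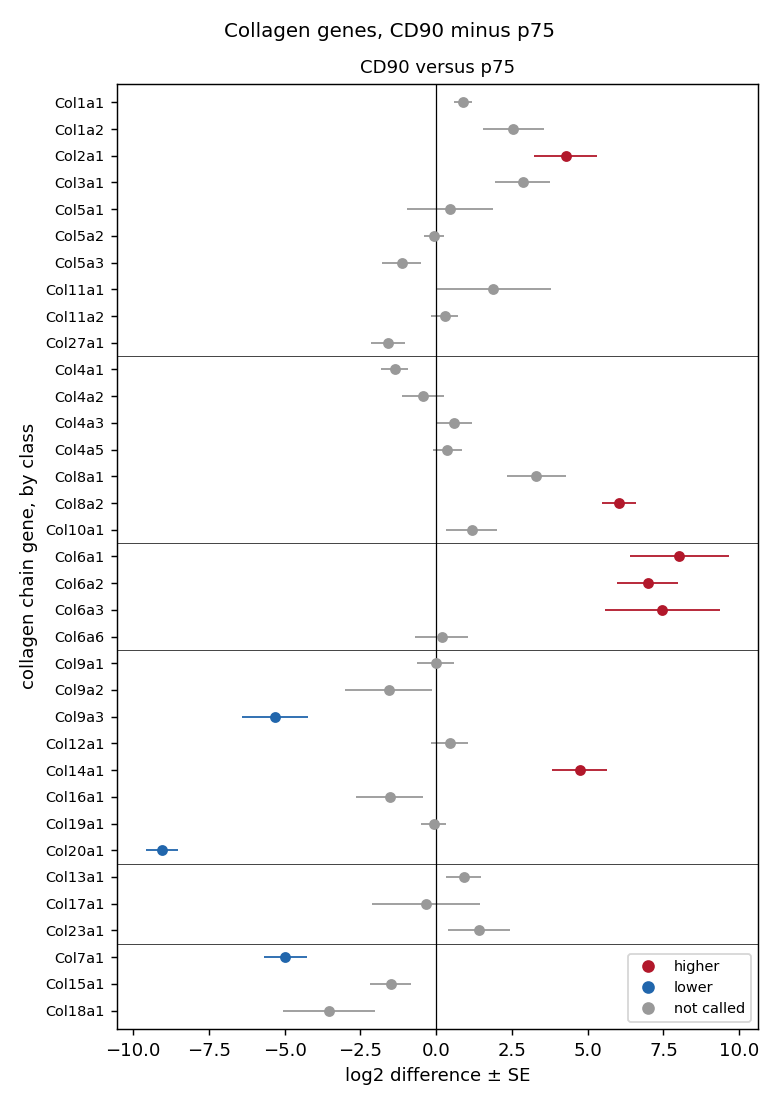
Log2 differences with SE of the 35 tested collagen genes (rows, by class), CD90 minus p75; red is higher, blue lower and grey not called. The 3 called type VI chains lay between 6.98 and 8.02, and the 3 lower genes were Col20a1 (−9.04), Col9a3 (−5.31) and Col7a1 (−4.97).

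Genes that process, cross-link and bind collagen were taken from lists written with earlier results of these data known. Between CD90 and p75 cells, 4 of 7 propeptide proteases and binding proteins were higher and none lower, where 7.25% of all genes were called (3.68% higher, 3.57% lower). They were Adamts2 (4.76 ± 1.01) and Adamts3 (at least 6.61-fold, adjusted p = 0.00579, on no p75 array above background), which trim procollagen, the enhancer Pcolce (2.82 ± 0.65) and Tll1 (1.13 ± 0.26). The list's median was 1.13, against 0.05 over all genes. Of 12 receptors and uptake genes, the collagen integrin Itga11 (6.46 ± 1.41) and the endocytic receptor Mrc2 (5.74 ± 1.20) were higher and Itga1 (−2.47 ± 0.49) was lower. Of 7 collagen-degrading proteases, cathepsin K (Ctsk, 4.67 ± 1.01) was higher. Of 19 hydroxylases and chaperones, Plod2, which hydroxylates lysines of the collagen telopeptides, was higher (2.63 ± 0.36) and Plod1, which acts on the helix, lower (−1.49 ± 0.22). None of 6 cross-linking enzymes was called in limma's test, with a median of 1.52. For these lists only the main fit was read, whose SE can be wider than the spread within CD90 and p75 cells.

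In TRKA versus CD90 cells, 7 of the 19 hydroxylases and chaperones were lower and 3 higher, where 16.6% of all genes were lower and 18.3% higher, with a median of −0.09, as over all genes (−0.09). The chaperone Serpinh1 differed by −5.34 ± 1.33, Sparc by −5.05 ± 1.36, the prolyl 4-hydroxylase chain P4ha3 by −10.04 ± 1.11, Fkbp14 by −6.21 ± 1.15 and P3h3 by −1.38 ± 0.35. The other lower ones, Fkbp10 and P3h2, were above background on no TRKA array. P4hb (0.85), Ppib (1.25) and Plod1 (1.18) were the higher ones. Of 6 cross-linking enzymes, Lox, Loxl1, Loxl2 and Loxl3 were lower and Tgm2, a transglutaminase, was higher (3.79 ± 1.05), with a median of −7.03. Loxl1 was above background on no TRKA array and, chosen after its values were seen, was at least 4.82-fold higher in TRKA-TGF than in TRKA cells (adjusted p = 4.72e-05).

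Of the 7 propeptide genes, 5 were lower in TRKA than in CD90 cells (Adamts2, Adamts3, Bmp1, Pcolce and Tll2), with a median of −4.92. Of 12 receptors, 8 were lower, among them Ddr2 (−6.75 ± 0.73) and Itga11 (−9.88 ± 1.41), and Oscar, an immunoglobulin-like receptor of myeloid cells, was higher (4.75 ± 0.71), with a median of −3.84. Of 7 proteases, Mmp2 (−7.25 ± 0.81) and Ctsk, on no TRKA array above background, were lower, and Mmp14 (0.74 ± 0.18) and Pepd (3.11 ± 0.68) higher, with a median of −0.85. The macrophage and fibroblast marker levels given above moved with these counts too, and their part was not tested.

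Against p75 cells, TRKA cells had 3 of 19 hydroxylases and chaperones higher and 7 lower, 1 of 6 cross-linking enzymes higher and 3 lower, none of 7 propeptide genes higher and 3 lower, 1 of 12 receptors higher and 5 lower, and 2 of 7 proteases higher and 1 lower. These counts stood beside 18.8% higher and 16.9% lower over all genes. In TRKA-TGF versus TRKA cells, 2 hydroxylases and chaperones were higher and 5 lower, 1 cross-linking enzyme higher and 1 lower, 1 receptor higher and 1 lower, 1 protease lower, and no propeptide gene was called in limma's test. Over all genes 13.5% were higher and 12.9% lower there, and the called shares of receptors, proteases and propeptide genes lay below the 26.4% called in either direction. Compared with p75 cells, TRKA-TGF cells had 9 lower hydroxylases and chaperones, 3 lower cross-linking enzymes, 3 lower receptors and 3 lower proteases, with 1 receptor, 1 protease and 1 propeptide gene higher, beside 7.15% lower and 7.97% higher over all genes. Compared with CD90 cells, the lower ones were 7, 3, 7 and 4 of the same lists and 3 propeptide genes, and 1 receptor and 1 protease were higher, beside 7.19% lower and 7.72% higher over all genes.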

How the data were processed

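Each deposited scanner file gives the linear intensity of every spot on 1 array, per the file headers (build rn4, Feature Extraction 10.7.3.1; the submitters' processing notes name version 10.5). RNA was isolated on magnetic beads with an amplification kit, per the labels' protocols. A log2 table deposited by the authors ran on quantile-normalized, probe-centred log2 signals and was used as an alternative only.

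Here, log2 of the processed signal was centred on each array's 75th percentile. Spots marked as non-uniform or population outliers (284 to 464 per array) were left out, and spots of a probe were averaged. A probe was kept if well above background on at least 4 of 16 arrays, and a gene was its brightest kept probe. 26 collagen genes had 1 probe, 9 had 2 and 3 had 3. limma 3.58.1 (R 4.3.3) fitted 1 mean per group. The number of arrays limits the precision. The fit was tested on simulated data. The check of the TRKA labels is not reported here.

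Every collagen gene is accounted for. Those called in any comparison or measured on all arrays of a group are given by array where measured, at the probe used. The exception is Col11a2, which is given as ranges. Called genes of the pathway lists were named for CD90 versus p75 and TRKA versus CD90. The members and gene lists were chosen with earlier results of these data known. Alternatives were quantile normalization, normexp (offset 50), the percentile over probes measured on all arrays, other filters, the authors' values, 2-group fits, a replicate block and each array left out.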

Additional observations from a re-analysis of the deposited data

Results flagged for a closer look

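Of 140 sets of 4 arrays checked, 1 per tested collagen gene and population, 11 had 1 array whose gap to the nearest of the others was too large a part of the set's range by Dixon's test at the 95% level. Chance alone gives about 1 in 20. Where the other arrays were not above background, the gap depends on levels that were not measured.

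In CD90 cells, Col12a1 stood at 4.61 on replicate 4, with the nearest array at 4.07, and Col6a2 stood at 0.55 on the same replicate, with the nearest at 1.33. Col9a2 stood at −4.56 on CD90 replicate 3, the only CD90 array on which it was above background. In p75 cells, Col2a1 stood at −4.59 on replicate 1, with the nearest at −3.64.

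In TRKA cells, Col17a1 stood at 2.12 on replicate 3, with the other 3 arrays not above background and the nearest at −6.63. Col6a6 stood at −4.32 on replicate 4, the only TRKA array above background for it. Col20a1 stood at −7.03 on replicate 1, with the nearest at −6.12. As that level was not above background, its distance from the others was not measured.

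In TRKA-TGF cells, Col4a2 stood at −4.02 on replicate 2, with the nearest at −0.44, and Col15a1 at −2.0 on replicate 3, with the nearest at −1.37. Col6a6 stood at −5.09 on replicate 1 and Col4a3 at −5.54 on replicate 4, each the only TRKA-TGF array above background for the gene.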

How the results depend on the processing

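No difference of a collagen gene that was called changed sign under any alternative run. In CD90 versus p75 cells, 9 collagen genes became 14 with normexp background correction, all 9 kept, and 16 with only the 2 groups in the fit, 6 kept. Over all settings that kept every array, the counts in the other comparisons ranged over 13 to 17 for TRKA versus p75, 17 to 27 for TRKA versus CD90, 6 to 10 for TRKA-TGF versus TRKA, 16 to 19 for TRKA-TGF versus p75 and 19 to 20 for TRKA-TGF versus CD90. With 1 array left out, they ranged over 7 to 9 for CD90 versus p75, 15 to 16, 20 to 24, 7 to 12, 15 to 17 and 17 to 19 in the same order. With only the 2 groups in the fit, 76 of 93 calls over the 6 comparisons held and 17 were lost, 3 in CD90 versus p75, 3 in TRKA versus p75 (Col11a1, Col14a1 and Col19a1; adjusted p up to 0.157), 7 in TRKA versus CD90 (Col1a2, Col2a1, Col5a3, Col9a3, Col10a1, Col11a1 and Col19a1; up to 0.163), 3 in TRKA-TGF versus TRKA (Col4a2, Col5a2 and Col12a1; up to 0.148) and 1 in TRKA-TGF versus CD90 (Col2a1, 0.0688). Of the 93 calls, 81 held without any 1 array and 12 did not. The count for TRKA-TGF versus TRKA was 12 without TRKA replicate 1, against 8 with all arrays.

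Correlations of same-numbered deviations ran from −0.03 to 0.04, so no shared effect of equal replicate numbers was seen. Whether such samples share an animal or culture cannot be told from this, and they were not treated as pairs. With the replicate block, 91 of the 93 calls held, and the lost ones were Col9a3 in TRKA versus CD90 (adjusted p = 0.0521) and Col8a1 in TRKA-TGF versus p75 (adjusted p = 0.0543). The counts with the block were 9, 16, 23, 8, 16 and 19 in the order of the comparisons above.

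Quantile normalization, normexp and the other percentile moved the median of all genes by over 0.1 in the 3 comparisons that include the TRKA arrays. The other percentile did so also in TRKA-TGF versus p75 (from 0.14 to 0.01) and versus CD90 (from 0.15 to −0.07). With the percentile over probes measured on all arrays, it was −0.90 in TRKA versus p75, −1.07 in TRKA versus CD90 and 0.96 in TRKA-TGF versus TRKA, and the higher share of all calls was 20.7, 18.7 and 82.9% against 52.7, 52.3 and 51.1%. With normexp the medians were 0.37, 0.23 and −0.16 and these shares 66.9, 62.7 and 38.8%, and with quantile normalization the last was 39.8%. Levels not well above background have no order among themselves. This limits the differences of collagen genes wherever some or all arrays of a group were not above background, also where a size with SE is given. Col6a1, Col6a2 and Col6a3 were each measured on 2 p75 arrays, Col20a1 on 1 CD90 array and Col18a1 on 1 TRKA array. Counted at the probe shown for each gene, 10 of the 38 collagen genes were above background on no TRKA array. They include Col4a1, whose second probe was above background on every array.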
